A study of Mus musculus with 4 samples.

Results

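The genes described here encode the Polycomb and DNA methylation machinery, 39 genes chosen by name from the 24537 genes in the RNA-Seq tables of group 2 innate lymphoid cells (ILC2s). They comprise 9 genes that place, copy or oxidise methyl groups on DNA, 11 genes of Polycomb repressive complex 2 (PRC2), 17 genes of Polycomb repressive complex 1 (PRC1) and its non-canonical forms, and the 2 H3K27 demethylases *Kdm6a* and *Kdm6b*. The rule names genes by role and uses no measured value, but the members were chosen with earlier results of these data known. ILC2s were sorted from bronchoalveolar lavage (BAL) fluid as Lineage-Sca-1+YFP+ cells 1 day after the final challenge and profiled by Smart-seq2, with 2 libraries from mice treated acutely with the alarmin IL-33, a direct activator of ILC2s, and 2 from mice exposed chronically over weeks to house dust mite (HDM) extract. All cells came from GATIR mice on a C57BL/6 background, which express YFP from an IRES cassette in the 3′ untranslated region of *Gata3*. The labels give the IL-33 mice as Gata3-YFP/YFP and the HDM mice as Gata3-YFP/WT and call the populations CD25High and CD25Low, whereas the methods state that homozygous animals alone were analysed and mention no gate on CD25. Untreated ILC2s were not analysed here. Genotype as labelled, CD25 label, stimulus and duration therefore cannot be told apart. The series calls the libraries biological replicates, but the sources used here do not say how many mice each holds, so the p-values reflect library-to-library spread, which may be technical.

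DNA methyltransferases add methyl groups to cytosine in CpG dinucleotides. DNMT1, guided by UHRF1 to newly replicated DNA, copies the existing pattern, whereas DNMT3A and DNMT3B write new marks and the TET dioxygenases oxidise them. PRC2 trimethylates lysine 27 of histone H3 (H3K27me3) through EZH1 or EZH2, PRC1 ubiquitinates histone H2A through RING1 or RNF2, and CBX proteins bring canonical PRC1 to H3K27me3. In lymphocytes these systems maintain silencing of genes of other lineages, and several of their subunits are produced mainly by dividing cells.

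Depth ranged from 10696002 to 16092387 reads in genes. The 45S ribosomal RNA gene *Rn45s* took 4.95% and 3.45% of them in the IL-33 libraries and 17.4% and 25.4% in the chronic HDM libraries. The number of genes with a read was 13102 and 12895 in the IL-33 libraries, against 10675 in HDM replicate 1 and 12134 in HDM replicate 2. All 13 ILC2 markers examined had reads in the 4 libraries. *Il2ra*, which encodes CD25, was at 432 and 376 RPKM after IL-33 and at 27.6 and 22.0 RPKM after chronic HDM. *Gata3*, the transcription factor that defines ILC2s, was at 14.9 and 18.9 RPKM after IL-33 and at 216 and 195 RPKM after chronic HDM, and *Il1rl1*, which encodes the IL-33 receptor, was at 77.3 and 79.9 RPKM against 217 and 205 RPKM. Of the 13 ILC2 markers, 2 were called higher after IL-33 and 2 higher after chronic HDM. Macrophage markers summed to 1250 and 287 RPKM after IL-33 and to 3100 and 8630 RPKM after chronic HDM, with 6 of the 13 at 0 in HDM replicate 1 and none at 0 in HDM replicate 2. *Chil3* and *Lyz2* made up most of the sum in HDM replicate 1, at 2144 and 933 RPKM. Of the 9 macrophage markers tested, 5 had both chronic HDM libraries higher, next to 23.5% of all genes tested, and 4 overlapped. The T cell markers *Cd4*, *Cd5* and *Cd8a* and the B cell markers *Ms4a1* and *Pax5* were at 0 in all 4 libraries. T cell marker sums lay between 71.6 and 104 RPKM over the 4 libraries, with overlapping groups. *Cd3g* made up most of each sum, at 75.974 and 101.447 RPKM after IL-33 and at 68.793 and 83.311 RPKM after chronic HDM. *Cd3d* and *Cd3e* also had reads and stayed at 2.828 RPKM or less. The sums of the other lists did not overlap between the groups. Dendritic cell markers summed to 7.84 and 9.21 RPKM after IL-33 and to 3.66 and 5.18 RPKM after chronic HDM. Epithelial markers summed to 14.5 and 5.52 RPKM after IL-33 and to 25.7 and 76.0 RPKM after chronic HDM. B cell markers summed to 38.4 and 27.4 RPKM after IL-33 and to 8.74 and 6.80 RPKM after chronic HDM, with *Cd79b* at 38.4 and 27.4 RPKM against 8.74 and 6.67 RPKM. Eosinophil, basophil and mast cell markers summed to 54.4 and 46.1 RPKM after IL-33 and to 7.46 and 5.96 RPKM after chronic HDM, with the basophil protease gene *Mcpt8* at 45.8 and 39.2 RPKM against 0 in both. Neutrophil markers summed to 0.395 and 0 RPKM after IL-33 and to 14.1 and 6.46 RPKM after chronic HDM, all of it *S100a8*. *Il1rl1*, *Chil3*, *Lyz2*, *Cd3g*, *Cd79b*, *Mcpt8* and *S100a8* were chosen by their values, and the part of these cells in the members' levels was not tested. The proliferation list of 21 genes summed to 1660 and 1730 RPKM after IL-33 and to 202 and 169 RPKM after chronic HDM. Of its 20 tested genes, 11 were called higher after IL-33 and 0 lower, with a median log2 fold change of 3.24. Among them, *Mki67*, the gene of the Ki-67 antigen, was at 28.6 and 31.0 RPKM after IL-33 and at 0 and 0.751 RPKM after chronic HDM. In bulk RNA, fewer cells that express a gene cannot be told apart from less RNA per cell.

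RPKM is a read count divided by exon length and by the mapped reads of the library, so levels of different genes can be set side by side. Genes averaging 2 RPKM or more across the libraries entered a limma test on log2(RPKM + 1), which shrinks the change of genes near 0. Calls needed an adjusted p below 0.01 plus a log2 fold change of more than 1 up or down, and positive log2 fold changes mean higher values after IL-33. Of the 39 members, 34 were tested. *Dnmt3b*, *Tet1*, *Ring1*, *Cbx2* and *Rybp* lay below the minimum. One member was called higher after IL-33, *Rbbp7*, against 2.80% of all 9523 genes tested, and one was called higher after chronic HDM, *Phf1*, against 0.536% of all genes. At a looser adjusted p of 0.05, 7 members were higher after IL-33 (*Dnmt1*, *Uhrf1*, *Hells*, *Ezh2*, *Eed*, *Rbbp7* and *Phf19*) against a background of 13.8%, and 2 were higher after chronic HDM (*Phf1* and *Cbx7*) against 4.78%. Both IL-33 libraries lay above both chronic HDM libraries for 16 of the 34 members, as for 41.7% of all genes tested. The reverse order held for 10 members, as for 23.5% of all genes, and the libraries of the groups overlapped for 8. The median log2 fold change of the 34 members was 0.32, with 21 above 0 and 13 below, and that of all genes tested was 0.28. By this measure the members together lay close to the bulk of genes, while single subunits ranged from -4.11 for *Phf1* to 3.57 for *Hells*.

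**Figure D1:**
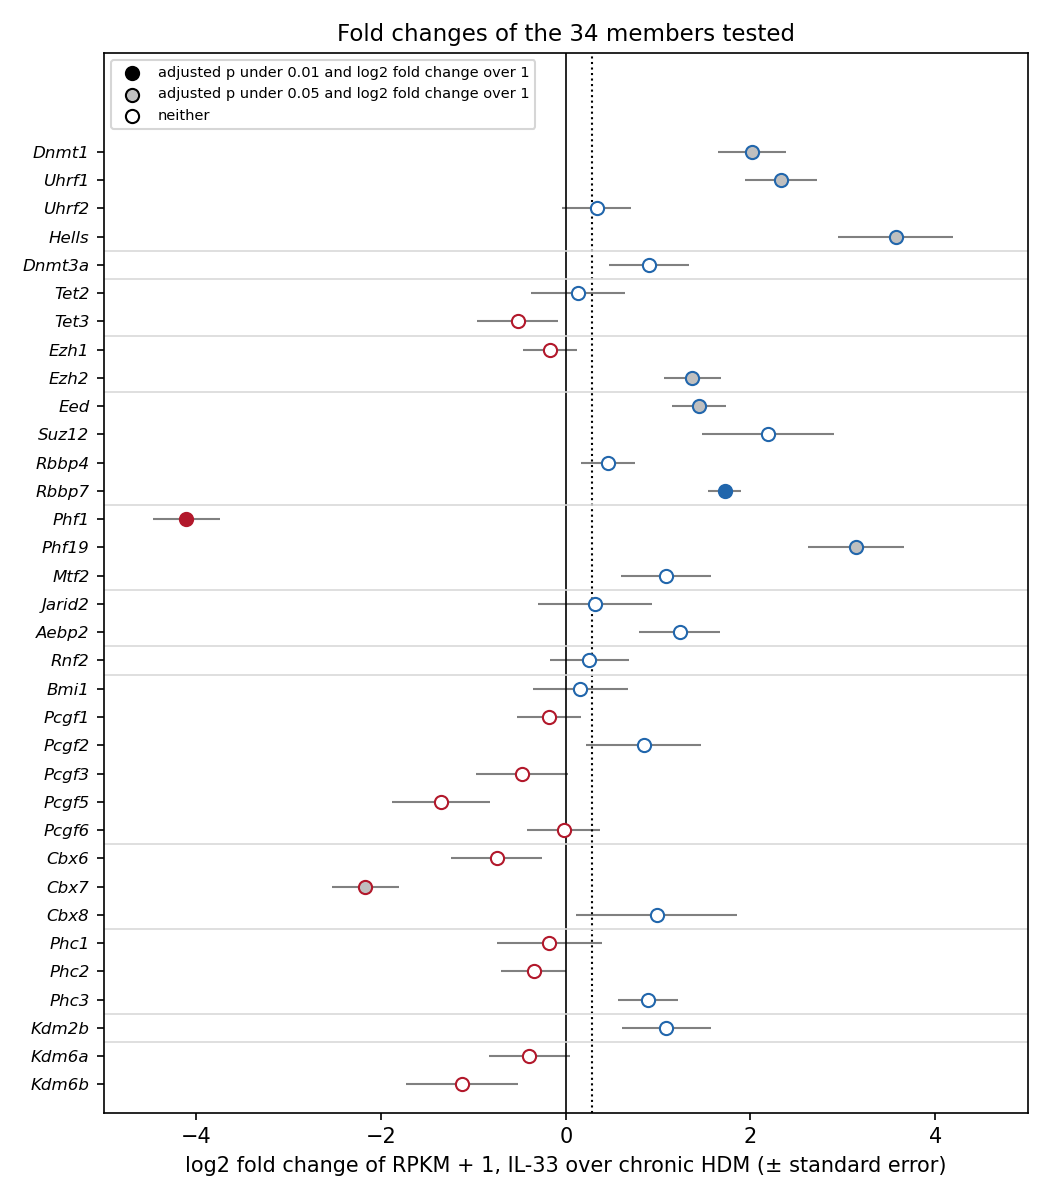
Log2 fold change of RPKM + 1 (x axis, IL-33 over chronic HDM, with the standard error from limma) for the 34 members tested, grouped by role from DNA methylation at the top to H3K27 demethylases at the bottom. Fully coloured points passed an adjusted p of 0.01 (*Rbbp7* at 1.72 and *Phf1* at -4.11), grey points passed 0.05 only, and the dotted line marks the median of all genes tested, 0.28.

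Scaling moved the zero point of these differences. Quantile normalization shifted the median of all genes by -0.29 on the log2 scale, median-of-ratios scaling by -0.21 and rescaling to equal totals without *Rn45s*, an alternative chosen after seeing the data, by -0.36. The share of called genes that were higher after IL-33 was 84.0% as deposited, 55.4% after quantile normalization, 68.0% after median-of-ratios scaling and 71.4% without *Rn45s*. The median of the 34 members was 0.14, 0.14 and 0.01 under these scalings.

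Promoter sequence was examined for one motif family, the binding motif of E2F transcription factors, which drive genes of DNA replication. The letters TTTCCCGC, TTTGGCGC, TTTCGCGC and TTTGCCGC were searched on both strands of RefSeq promoters (GRCm38.p6, 250 bases before to 50 after each start site). Of 32851 promoters, 744 (2.26%) held at least 1 of them, and of the 7378 tested genes with a promoter in the table, 375 (5.08%). Among the 35 members with a promoter, 6 held the motif, *Phf19*, *Ezh2*, *Dnmt1*, *Suz12*, *Uhrf1* and *Hells*. All 6 belong to the 16 tested members whose IL-33 libraries both lay above both chronic HDM libraries. The motif was found in 0 of 9 tested members with the reverse order and in 0 of 7 with overlapping libraries. Over all tested genes with a promoter, it was found in 6.57% of the 3103 with both IL-33 libraries higher, in 3.10% of the 1708 with the reverse order and in 4.60% of the 2567 with overlapping libraries. These are letter matches and not sites of binding. The windows of 30 bases below are read 5′ to 3′ on the strand of the gene. They show every match found in the members' promoters. The members with the motif, all but *Ezh2*, had the 5 largest log2 fold changes towards IL-33 among the members. The part of E2F factors in the levels of these genes was not tested. Capitals mark the motif, which in *Phf19* and the first *Dnmt1* window lies on the opposite strand and reads as its reverse complement.
*Phf19* (chr2:34914166-34914195, minus strand): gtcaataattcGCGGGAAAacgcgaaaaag
*Ezh2* (chr6:47595009-47595038, minus strand): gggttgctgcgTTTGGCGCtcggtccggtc
*Dnmt1* (chr9:20952824-20952853, minus strand): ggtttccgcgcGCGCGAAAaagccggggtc
*Dnmt1* (chr9:20952574-20952603, minus strand): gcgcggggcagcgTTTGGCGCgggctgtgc
*Suz12* (chr11:79992876-79992905, plus strand): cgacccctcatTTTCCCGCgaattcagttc
*Uhrf1* (chr17:56304117-56304146, plus strand): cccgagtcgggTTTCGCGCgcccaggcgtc
*Hells* (chr19:38930917-38930946, plus strand): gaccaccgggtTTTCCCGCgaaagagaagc
The *Dnmt1* promoter in the RefSeq table belongs to a start site inside the span of the transcript that the deposited tables count.

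Of the 4 genes that copy DNA methylation, 3 were higher in IL-33-stimulated ILC2s at the looser threshold, and in all 4 both IL-33 libraries lay above both chronic HDM libraries, next to 13.8% and 41.7% of all genes tested. *Dnmt1* (mm10 chromosome 9, 20907206 to 20959888), the maintenance methyltransferase, was at 40.7 and 50.9 RPKM after IL-33 and at 14.1 and 7.79 RPKM after chronic HDM. Its log2 fold change was 2.01 with a standard error of 0.37 (adjusted p = 0.0207). *Uhrf1*, whose product recognises hemimethylated DNA and recruits DNMT1, was at 40.2 and 57.0 RPKM after IL-33 and at 11.7 and 6.45 RPKM after chronic HDM, with a log2 fold change of 2.33 ± 0.39 (standard error) and an adjusted p of 0.0172. *Hells*, a chromatin remodeler needed for methylation of repeats, was at 40.4 and 38.2 RPKM after IL-33 and at 5.19 and 0.853 RPKM after chronic HDM. The ratio of its group means, 13.0, was the largest of the 4 maintenance genes (log2 fold change 3.57, adjusted p = 0.0187). With no minimum on RPKM the adjusted p was 0.0512 for *Dnmt1* and 0.0577 for *Hells*. The HDM libraries themselves differed widely for *Hells*, with 299 reads in replicate 1 and 47 in replicate 2. *Uhrf2*, the paralog of *Uhrf1*, stood apart from these. It was at 9.52 and 8.49 RPKM after IL-33 and at 6.22 and 7.72 RPKM after chronic HDM (log2 fold change 0.33, or -0.03 without *Rn45s*, adjusted p = 0.557). The proliferation genes given above differed in the same direction as the maintenance genes, and their part in this difference was not tested.

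Writers of new methylation and the TET enzymes stayed at 10.95 RPKM or less in every library. None of the 3 tested was called, next to 2.80% of all genes higher after IL-33 and 0.536% after chronic HDM. *Dnmt3a*, the main de novo methyltransferase of blood cells, was at 10.56 and 10.95 RPKM after IL-33 and at 3.82 and 7.25 RPKM after chronic HDM (log2 fold change 0.90, adjusted p = 0.194). *Dnmt3b* was at 1.51 and 2.44 RPKM after IL-33, at 1.64 RPKM in HDM replicate 2 and without reads in HDM replicate 1, which allows up to 0.0396 RPKM at 3 reads. *Tet2* was at 3.47 and 6.89 RPKM after IL-33 and at 3.46 and 5.62 RPKM after chronic HDM, with overlapping libraries. *Tet3* was at 3.57 and 3.91 RPKM after IL-33 and at 4.77 and 7.002 RPKM after chronic HDM (log2 fold change -0.52, adjusted p = 0.433). *Tet1* stayed at 0.880 RPKM or less. The 3 TET genes summed to 7.18 and 10.9 RPKM after IL-33 and to 9.11 and 12.8 RPKM after chronic HDM, with overlapping libraries, while the maintenance genes summed to 131 and 155 RPKM against 37.2 and 22.8 RPKM.

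**Figure D2:**
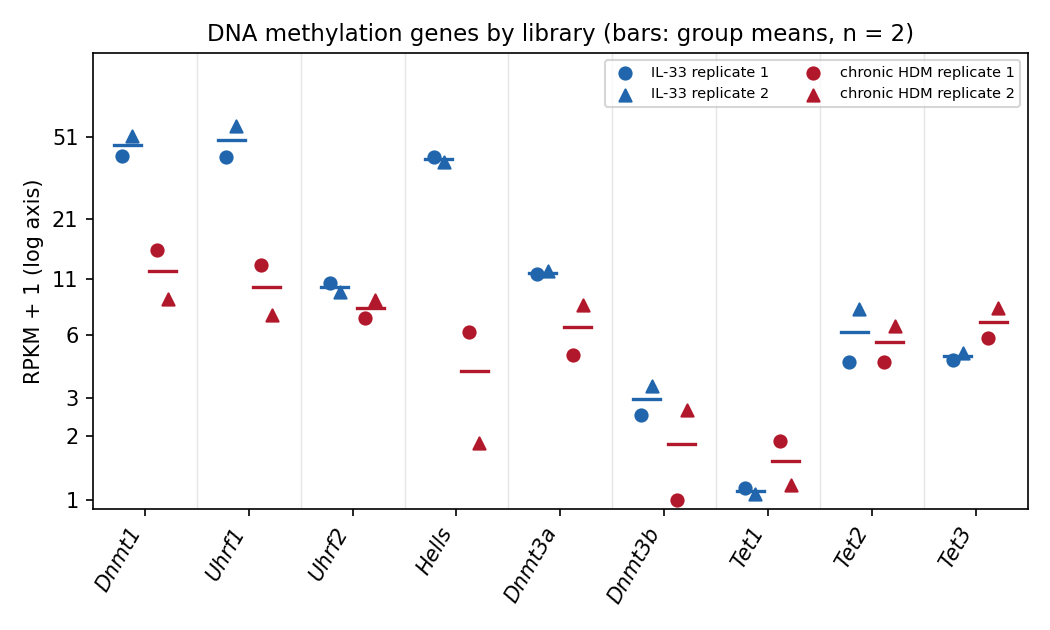
RPKM + 1 on a log axis for the 9 DNA methylation genes in each library, with circles for replicate 1, triangles for replicate 2, blue for IL-33, red for chronic HDM and horizontal bars at the means of the 2 libraries. *Dnmt1*, *Uhrf1* and *Hells* show blue points well above red, and the TET genes lie low in both groups.

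The catalytic subunits of PRC2 differed from each other. *Ezh2* (chromosome 6, 47530274 to 47595030), the methyltransferase of dividing cells, was at 22.2 and 23.6 RPKM after IL-33 and at 7.99 and 8.495 RPKM after chronic HDM. The replicates lay close together in both groups, and the log2 fold change was 1.37 with a standard error of 0.31 (adjusted p = 0.0343). The adjusted p of *Ezh2* passed 0.05 as deposited but was 0.0539 after quantile normalization, 0.0561 after median-of-ratios scaling, 0.08 without *Rn45s*, 0.0556 with limma-voom and 0.0535 with no minimum. *Ezh1*, the less active paralog found also in resting cells, was at 15.1 and 15.7 RPKM after IL-33 and at 18.6 and 16.4 RPKM after chronic HDM (log2 fold change -0.17, adjusted p = 0.71). As a share of both, *Ezh2* made up 59.51% and 60.04% after IL-33 against 30.02% and 34.07% after chronic HDM. The more abundant catalytic subunit was therefore *Ezh2* in both IL-33 libraries and *Ezh1* in both chronic HDM libraries.

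In all 4 genes of the non-catalytic core of PRC2 both IL-33 libraries lay above both chronic HDM libraries, next to 41.7% of all genes tested, and 1 of the 4 was called, next to 2.80%. *Rbbp7* (chromosome X, 162760372 to 162779090), a histone-binding protein shared with other chromatin complexes, was the most abundant member in every library. It was at 289 and 259 RPKM after IL-33 and at 87.0 and 78.1 RPKM after chronic HDM, a ratio of means of 3.32 (log2 fold change 1.72 with a standard error of 0.18, adjusted p = 0.00723). Its adjusted p lay between 0.0106 and 0.0149 under the 3 other scalings and was 0.0164 with limma-voom on reads recovered from the RPKM values. Without IL-33 replicate 1 or 2 it was 0.324 and 0.297, and without HDM replicate 1 or 2 it was 0.000818 and 0.00207. Sex-linked genes also differed between the libraries. *Xist*, which is transcribed from the inactive X of female cells, had 0 and 2 reads after IL-33 against 1794 and 2298 reads after chronic HDM, while Y-linked *Eif2s3y* had 859 and 644 reads after IL-33 against 1099 and 575 after chronic HDM. The chronic HDM libraries thus held reads of both *Xist* and a Y-linked gene, and the part of sex-linked expression in the difference of X-linked *Rbbp7* was not tested. *Rbbp4*, its autosomal paralog, was at 37.1 and 34.7 RPKM after IL-33 and at 31.3 and 21.3 RPKM after chronic HDM (log2 fold change 0.46, adjusted p = 0.313). *Eed*, which binds H3K27me3 and activates the enzyme, was at 36.4 and 31.6 RPKM after IL-33 and at 13.1 and 10.7 RPKM after chronic HDM (log2 fold change 1.45, adjusted p = 0.0266, or 0.0512 with limma-voom and 0.0568 without *Rn45s*). *Suz12*, the scaffold of the complex, was at 8.30 and 6.75 RPKM after IL-33, at 2.46 RPKM in HDM replicate 2 and without reads in HDM replicate 1, which allows up to 0.0364 RPKM (log2 fold change 2.19, adjusted p = 0.0861).

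The polycomb-like proteins PHF1, MTF2 and PHF19 help PRC2 to bind chromatin, and their genes gave the widest contrast among the members. *Phf1* (chromosome 17, 26933127 to 26937908, plus strand) was at 0.978 and 1.41 RPKM after IL-33, from 31 and 40 reads, and at 35.9 and 37.4 RPKM after chronic HDM, from 1670 and 1665 reads. It was 30.7-fold higher in chronic HDM-stimulated ILC2s by the ratio of means, with a log2 fold change of -4.11 and a standard error of 0.37 (adjusted p = 0.00687). The adjusted p was 0.00453 after quantile normalization, 0.00843 after median-of-ratios scaling, 0.0101 without *Rn45s*, 0.0148 with a pseudocount of 0.1 and 0.0317 with limma-voom. Without IL-33 replicate 1 or 2 it was 0.324 and 0.297, and without HDM replicate 1 or 2 it was 0.000703 and 0.00166. *Phf19* went the other way, at 7.87 and 11.5 RPKM after IL-33, at 0.423 RPKM in HDM replicate 2 and without reads in HDM replicate 1, which allows up to 0.0419 RPKM (log2 fold change 3.14 with a standard error of 0.52, adjusted p = 0.0166, or 0.0886 with limma-voom). *Mtf2* was at 35.5 and 27.6 RPKM after IL-33 and at 22.9 and 8.71 RPKM after chronic HDM (log2 fold change 1.08, adjusted p = 0.172).

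The summed level of the 3 polycomb-like genes differed less than its parts, at 44.3 and 40.5 RPKM in the IL-33 libraries and 58.7 and 46.5 RPKM in the chronic HDM libraries. *Phf1* made up 2.21% and 3.47% of that sum after IL-33 against 61.1% and 80.4% after chronic HDM. *Mtf2* made up 80.05% and 68.09% after IL-33 against 38.9% and 18.7% after chronic HDM. The level of *Phf1* carries limits. Reads were not assigned to a strand, and 810 bases (32.1%) of the annotated *Phf1* transcript overlap exons of *Cuta* on the opposite strand. *Cuta* was at 153 and 133 RPKM after IL-33 and at 159 and 115 RPKM after chronic HDM, with a log2 fold change of 0.08 (adjusted p = 0.834). *Cuta* had 1301 and 1015 reads after IL-33 against 1987 and 1370 reads after chronic HDM, and the part of these reads in the level of *Phf1* was not tested. The tables also count *Phf1*, like *Pcgf6*, over a RefSeq transcript recorded as non-coding, so reads in exons that record lacks were not counted. *Mtf2* shares 9.73% of its exon bases with *Tmed5*, and *Phf19* shares none. Among the other PRC2 members, *Rbbp4* shares 35.8% of its exon bases, *Eed* 12.6% and *Rbbp7* 7.75%, all with genes on the opposite strand. The part of reads from those genes in these levels was not tested. Macrophage markers also summed higher in the chronic HDM libraries, to 3100 RPKM in replicate 1 and 8630 RPKM in replicate 2. In replicate 1, *Chil3* and *Lyz2* made up most of that sum and 6 of the 13 markers were at 0. The part of macrophages in the level of *Phf1* was not tested.

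**Figure D3:**
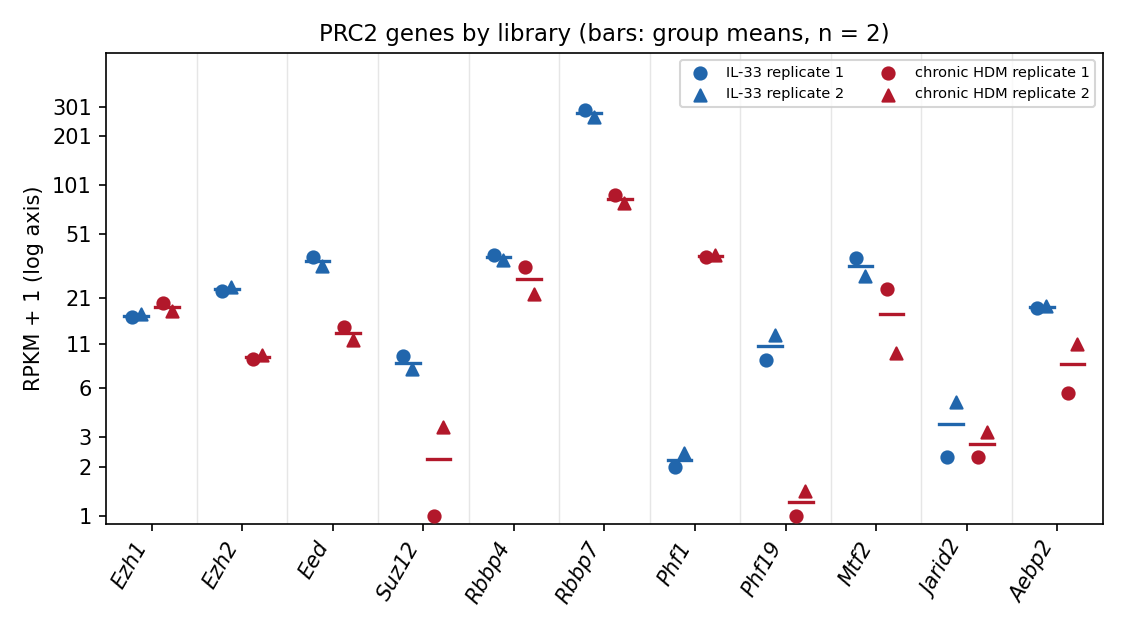
RPKM + 1 on a log axis for the 11 PRC2 genes in each library, with circles for replicate 1, triangles for replicate 2, blue for IL-33, red for chronic HDM and horizontal bars at the means of the 2 libraries. *Phf1* shows red points above blue at 35.9 and 37.4 RPKM, and *Phf19* shows the opposite order.

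*Jarid2* and *Aebp2* encode accessory subunits of the form of PRC2 that lacks polycomb-like proteins. *Jarid2* was at 1.298 and 3.93 RPKM after IL-33 and at 1.27 and 2.23 RPKM after chronic HDM, with overlapping libraries. *Aebp2* was at 17.4 and 17.8 RPKM after IL-33 and at 4.61 and 10.1 RPKM after chronic HDM (log2 fold change 1.23, adjusted p = 0.107). Of the 11 PRC2 members, 8 had both IL-33 libraries above both chronic HDM libraries, next to 41.7% of all genes tested.

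Of the 14 PRC1 genes tested, 3 had both IL-33 libraries higher, next to 41.7% of all genes. Both chronic HDM libraries were higher for 5, next to 23.5%, and 6 overlapped. At an adjusted p of 0.01 limma called none of them, next to 2.80% of all genes higher after IL-33 and 0.536% after chronic HDM. Limma-voom called 0 of all 9523 genes, so it cannot set these genes apart. At an unadjusted p below 0.05 1 PRC1 gene was higher after IL-33 and 2 were higher after chronic HDM, as were 25.5% and 11.2% of all genes. The ubiquitin ligase gene *Rnf2* was at 11.3 and 7.59 RPKM after IL-33 and at 9.55 and 6.03 RPKM after chronic HDM (log2 fold change 0.26, adjusted p = 0.698). *Ring1*, its paralog, was at 0.452 and 1.85 RPKM after IL-33 and at 1.03 and 4.40 RPKM after chronic HDM. *Rnf2* exceeded *Ring1* in all 4 libraries, by between 1.37-fold in HDM replicate 2 and 25.1-fold in IL-33 replicate 1.

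The PCGF proteins pair with the ligase and define the form of PRC1. *Bmi1*, the PCGF protein best known from stem cell self-renewal, was at 6.57 and 3.66 RPKM after IL-33 and at 5.90 and 3.13 RPKM after chronic HDM, with overlapping libraries. *Pcgf5*, which belongs to a non-canonical PRC1, was at 10.04 and 10.12 RPKM after IL-33 and at 46.2 and 15.9 RPKM after chronic HDM (log2 fold change -1.35, adjusted p = 0.132). Both chronic HDM libraries lay above both IL-33 libraries, but replicate 1 stood far above replicate 2. *Pcgf1* lay between 10.3 and 15.2 RPKM in all 4 libraries and *Pcgf6* between 5.56 and 7.98 RPKM, with overlapping groups. *Pcgf2*, the closest paralog of *Bmi1*, was at 2.65 and 2.92 RPKM after IL-33 and at 2.18 and 0.396 RPKM after chronic HDM. *Pcgf3* lay between 1.64 and 3.71 RPKM.

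Among the 4 CBX members, whose products read H3K27me3, *Cbx7* was the most abundant in every library and had the largest log2 fold change. *Cbx7* (chromosome 15, 79915807 to 79932646) was at 6.96 and 7.23 RPKM after IL-33 and at 46.0 and 27.3 RPKM after chronic HDM, a ratio of means of 5.16 towards HDM (log2 fold change -2.17 with a standard error of 0.37, adjusted p = 0.0178). The part of macrophages, whose marker sums are given above, in the level of *Cbx7* was not tested. *Cbx6* was at 1.26 and 1.49 RPKM after IL-33 and at 3.14 and 2.84 RPKM after chronic HDM (log2 fold change -0.75, adjusted p = 0.326). *Cbx8* was at 4.85 and 5.10 RPKM after IL-33, at 6.12 RPKM in HDM replicate 1 and at 0.275 RPKM in HDM replicate 2, from 7 reads. *Cbx2* was at 0.856 and 2.07 RPKM after IL-33, at 0.798 RPKM in HDM replicate 2 and without reads in HDM replicate 1, which allows up to 0.0417 RPKM. *Cbx7* made up 49.99% and 45.53% of the 4 genes after IL-33 against 83.2% and 87.5% after chronic HDM.

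The polyhomeotic proteins link PRC1 complexes to each other. *Phc3* was at 16.4 and 20.4 RPKM after IL-33 and at 8.86 and 9.99 RPKM after chronic HDM (log2 fold change 0.89, adjusted p = 0.114), and *Phc2* was at 7.30 and 7.11 RPKM after IL-33 and at 9.30 and 9.59 RPKM after chronic HDM (log2 fold change -0.35, adjusted p = 0.521). *Phc1* lay between 1.36 and 3.32 RPKM. *Phc3* thus made up 65.4% and 66.4% of the family after IL-33 against 44.1% and 43.6% after chronic HDM. *Kdm2b*, which brings non-canonical PRC1 to unmethylated CpG islands, was at 10.997 and 14.6 RPKM after IL-33 and at 3.53 and 8.16 RPKM after chronic HDM (log2 fold change 1.09, adjusted p = 0.167). It shares 17.7% of its exon bases with *Rnf34* on the opposite strand, which was at 24.4 and 21.7 RPKM after IL-33 and at 2.94 and 15.9 RPKM after chronic HDM (log2 fold change 1.56, adjusted p = 0.175). The part of *Rnf34* reads in the level of *Kdm2b* was not tested. *Rybp*, a non-canonical PRC1 subunit, was at 1.03 and 1.35 RPKM after IL-33, at 2.10 RPKM in HDM replicate 2 and without reads in HDM replicate 1, which allows up to 0.0357 RPKM.

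The demethylases that remove H3K27 methylation were higher in both chronic HDM libraries, next to 23.5% of all genes tested, and passed neither threshold. Both genes were highest in HDM replicate 1, and HDM replicate 2 of *Kdm6a* lay barely above IL-33 replicate 2. *Kdm6b*, known as an inducible gene of activated immune cells, was at 1.66 and 1.93 RPKM after IL-33 and at 8.61 and 2.84 RPKM after chronic HDM (log2 fold change -1.12, adjusted p = 0.238). *Kdm6a*, on the X chromosome, was at 4.66 and 5.06 RPKM after IL-33 and at 8.74 and 5.07 RPKM after chronic HDM (log2 fold change -0.39, adjusted p = 0.561). *Uty*, its Y-linked paralog, had 245 and 202 reads after IL-33 against 10 and 87 reads after chronic HDM. The part of the sex-linked differences in the level of *Kdm6a*, of which female cells transcribe both copies, was not tested.

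**Figure D4:**
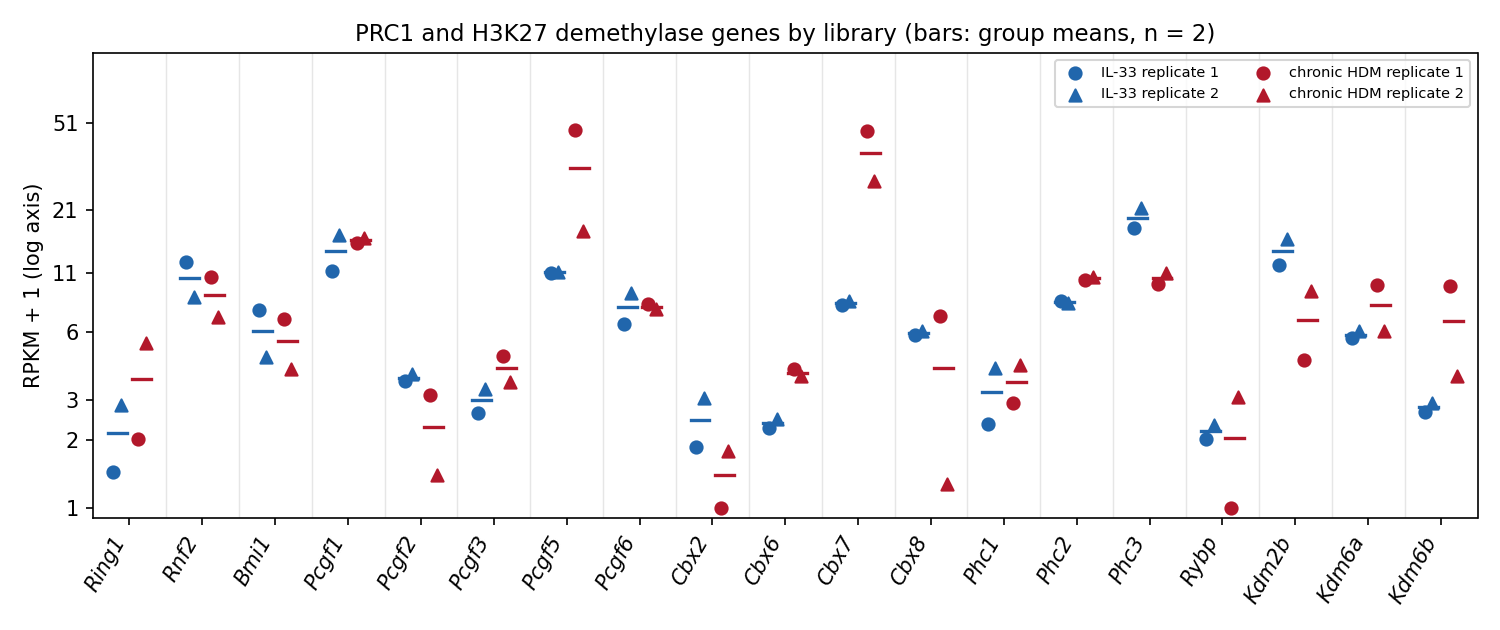
RPKM + 1 on a log axis for the 17 PRC1 genes and the 2 H3K27 demethylase genes in each library, with circles for replicate 1, triangles for replicate 2, blue for IL-33, red for chronic HDM and horizontal bars at the means of the 2 libraries. *Cbx7* and *Pcgf5* show red points above blue, with wide spread between the chronic HDM replicates, while most other genes overlap or differ little.

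Ratios between paralogs in the same library do not change when a whole library is rescaled by a single factor, apart from the pseudocount. Quantile normalization is no such factor and moves them. Of 12 pairs computed as log2 ratios of RPKM + 1, 10 did not overlap between the groups, 8 being higher after IL-33. With 2 libraries against 2, the exact permutation test (two-sided) gave p = 0.333 for each of these 10, the smallest p it can give, and the Benjamini-Hochberg adjusted value was at least 0.333. The direction of a ratio depends on which paralog was set on top. No share over other gene pairs was computed. Of all single genes tested, 41.7% had both IL-33 libraries higher and 23.5% both chronic HDM libraries higher. *Ezh2* over *Ezh1* was 1.47 and 1.502 in the IL-33 libraries and 0.429 and 0.517 in the chronic HDM libraries as a plain ratio, a difference of 1.54 in the log2 ratio. *Uhrf1* over *Uhrf2* was 4.22 and 6.71 with IL-33 and 1.88 and 0.835 with chronic HDM. *Mtf2* over *Phf1* was 36.3 and 19.6 after IL-33 against 0.637 and 0.233 after chronic HDM, a difference of 5.19 in the log2 ratio. *Rbbp7* over *Rbbp4* was 7.80 and 7.46 after IL-33 against 2.78 and 3.67 after chronic HDM. *Cbx8* over *Cbx7* was 0.696 and 0.705 after IL-33 against 0.133 and 0.0101 after chronic HDM. The 2 ratios higher in both chronic HDM libraries were *Bmi1* over *Pcgf2* and *Kdm6b* over *Kdm6a*, and the 2 with overlapping libraries were *Dnmt3b* over *Dnmt3a* and *Rnf2* over *Ring1*.

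**Figure D5:**
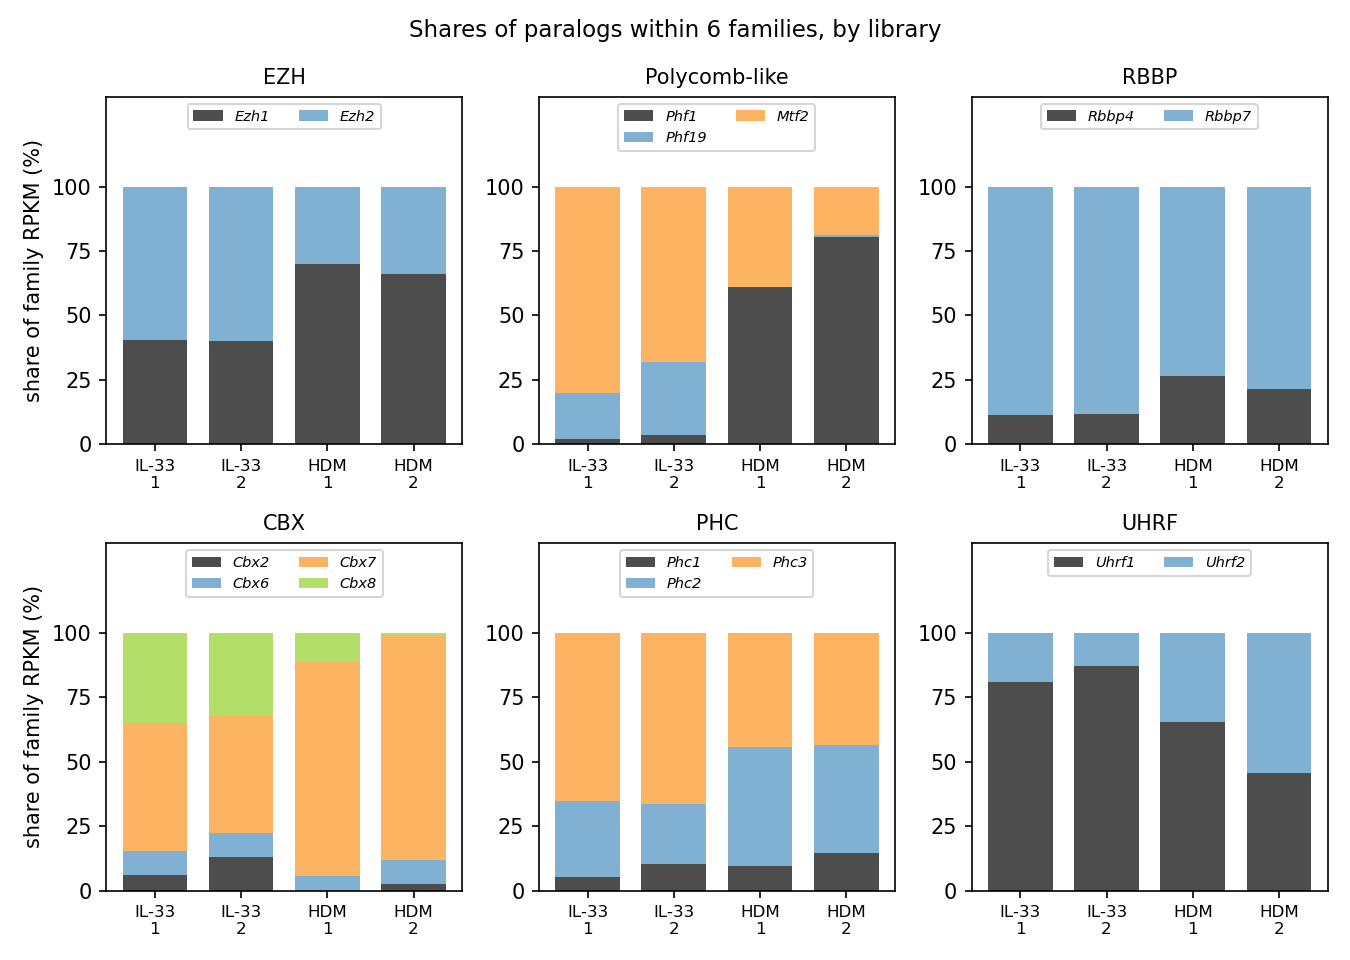
Share of each paralog in the summed RPKM of its family (y axis, percent) in each of the 4 libraries for 6 families. *Ezh2* makes up 59.51% and 60.04% of the EZH sum after IL-33, with 30.02% and 34.07% after chronic HDM, *Phf1* takes 61.1% and 80.4% of the polycomb-like sum after chronic HDM, and *Cbx7* takes 83.2% and 87.5% of the CBX sum.

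The members varied between replicates as other genes did. The median absolute log2 gap between replicates of the 34 tested members was 0.179 for the IL-33 pair and 0.568 for the chronic HDM pair, next to 0.229 and 0.572 for all genes tested. The 5 members without reads in a library, *Dnmt3b*, *Suz12*, *Phf19*, *Cbx2* and *Rybp*, were all without reads in HDM replicate 1 alone. *Suz12* and *Phf19* were tested, so that 2 of the 34 tested members (5.88%) and 6.17% of all genes tested were at 0 in that library, compared over all genes with 2.15% in HDM replicate 2 and 0.746% in either IL-33 library. Floors cover counting error only, since Smart-seq2 amplifies cDNA by PCR without molecular identifiers.

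A further 57 genes act with the machinery or against it, as readers of methylated DNA, co-factors, other Polycomb and H2A ubiquitin genes, or trithorax and SWI/SNF genes. Of these 48 were tested. At an adjusted p of 0.01 limma called none, next to 2.80% of all genes higher after IL-33 and 0.536% after chronic HDM. Limma-voom called 0 of all 9523 genes, so it cannot set these genes apart. In the limma test 3 passed an adjusted p of 0.05, all higher after IL-33, next to 13.8% of all genes tested. At an unadjusted p below 0.05, 12 of the 48 were higher after IL-33 and 2 higher after chronic HDM, next to 25.5% and 11.2% of all genes. The median log2 fold change of the 48 was 0.50, against 0.28 for all genes, and 36 lay above 0. These 3 are named because of their values. *Mbd4*, a glycosylase that repairs mismatches at methylated CpGs, was at 5.55 and 9.79 RPKM after IL-33 and at 0 and 1.25 RPKM after chronic HDM. *Ahcy*, which clears the by-product of methyl transfer, was at 11.3 and 8.55 RPKM against 0.926 and 2.28 RPKM. *Smarca4*, the BRG1 ATPase of SWI/SNF, was at 34.3 and 31.4 RPKM against 3.65 and 9.60 RPKM. *Mat2a*, which makes the methyl donor S-adenosylmethionine, was the most abundant of the co-factor genes, at 213 and 192 RPKM after IL-33 and at 207 and 91.5 RPKM after chronic HDM, with overlapping libraries. *Gadd45g*, an inducible stress gene linked to demethylation, was at 76.6 and 132 RPKM after IL-33 and at 39.1 and 53.4 RPKM after chronic HDM (adjusted p = 0.071).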

How the data were processed

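RNA-Seq of 4 libraries of sorted BAL fluid ILC2s was analysed, 2 per group, grouped by the labels. The authors sequenced single 51-bp Smart-seq2 reads, mapped these to mm10 by HISAT2 (2.0.4 per the submitters' processing notes) and used HOMER to count exon reads over a single RefSeq transcript for each gene, which gave the deposited RPKM values. The authors tested with DESeq2 as run by HOMER, which was not used here because the deposited files hold no raw counts. All 4 tables list the same transcripts and were used as deposited. RPKM times exon length gave steps of 1 read, and 100% of the low values lay within 0.1 of a whole read, which implies 11742964 to 19224517 mapped reads.

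Genes averaging 2 RPKM or more (9523) were tested with limma 3.58.1 in R 4.3.3 on log2(RPKM + 1), with an intensity trend, two-sided, and Benjamini-Hochberg adjustment over all of them. Calls required an adjusted p below 0.01 and a fold change beyond 1 on the log2 scale. With 2 libraries a side, an exact permutation test cannot give p below 0.33. The procedure was tested on simulated data. All members could be named. Other genes were named by abundance within their list, or as stated. Proliferation, marker, target and co-factor lists were hand-made, and *Rnf34*, *Tmed5*, *Cuta*, *Xist*, *Eif2s3y* and *Uty* were added once their values were known. Members and lists were chosen with earlier results of these data known. Exon overlaps come from GENCODE M21. Promoters come from RefSeq, where 35 of 39 members had an entry. Alternatives covered the pseudocount, the minimum, scaling, the variance model, the replicate number as a block, the looser threshold, limma-voom on recovered reads and leaving out each library.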

Additional observations from a re-analysis of the deposited data

How the results depend on the processing

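The number of members called higher after IL-33, 1 as reported, was 0 with a pseudocount of 0.1, with a minimum of 0.5 RPKM, with no minimum, after quantile or median-of-ratios scaling, without the intensity trend, with limma-voom on recovered reads and with equal totals without *Rn45s*. It was 7 at an adjusted p under 0.05 and 0 to 9 when a library was left out. The number called higher after chronic HDM, also 1, was 0 with a pseudocount of 0.1, with a minimum of 0.5 RPKM, with no minimum, without the trend, with limma-voom and without *Rn45s*, 2 at an adjusted p under 0.05, and 0 to 4 when a library was left out. Without either IL-33 library no gene was called among all genes in either direction, since the spread then rests on the chronic HDM pair and the lone library is assumed to vary like the others. Without HDM replicate 1 or 2, 9 members each were higher after IL-33, and 2 and 4 were higher after chronic HDM, while of all genes 19.8% and 20.8% were then called higher after IL-33 and 5.39% and 7.05% higher after chronic HDM. *Dnmt1*, *Uhrf1*, *Hells*, *Ezh2*, *Eed*, *Phf19* and *Cbx7* joined in both cases, *Mtf2* and *Cbx8* without replicate 1, and *Suz12*, *Aebp2*, *Pcgf5* and *Kdm6b* without replicate 2. The replicate block gave 5 members higher after IL-33 and 2 higher after chronic HDM, with 10.4% and 2.80% of all genes, but the numbers are names only, and deviations of same-numbered libraries correlated at r = -0.038 over 9523 genes. Limma-voom called 0 genes in all. Without either IL-33 library, the 9 members at an adjusted p under 0.05 also lost that threshold, at 0.297 to 0.405.

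Of 34 members, 25 kept the direction of their log2 fold change under every alternative run, and 9 did not. Without *Rn45s*, *Uhrf2* was -0.028, *Tet2* -0.206, *Rnf2* -0.104 and *Bmi1* -0.174. After quantile normalization, *Tet2* was -0.034 and *Jarid2* -0.081, and after median-of-ratios scaling *Tet2* was -0.065 and *Bmi1* -0.032. With a library left out, *Tet2* ranged from -0.281 to 0.538, *Rnf2* from -0.035 to 0.549, *Bmi1* from -0.216 to 0.525, *Pcgf1* from -0.444 to 0.080, *Pcgf6* from -0.251 to 0.202, *Cbx8* from -0.253 to 2.228 and *Phc1* from -0.59 to 0.237. The difference in the log2 ratio of *Dnmt3b* over *Dnmt3a* was 1.261 with a pseudocount of 0.1 and -0.357 to 0.269 without a library, and that of *Rnf2* over *Ring1* was -0.04 to 1.959 without a library. The cause was not tested.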

Other observations

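The HOX genes and most of the germline genes examined, which Polycomb or DNA methylation are known to keep silent in somatic cells, were nearly silent in all 4 libraries. Of 39 HOX genes, 36 had no read in any library, and the other 3 stayed below 1 RPKM in every library. Of 15 germline genes, 9 had no read in any library and 13 stayed below 1 RPKM throughout. *Tdrkh* was the one germline gene with a mean over 2 RPKM, at 5.45 and 2.198 RPKM after IL-33 and at 1.24 and 6.91 RPKM after chronic HDM, with overlapping libraries. Among the CDK inhibitors, *Cdkn1a*, which encodes p21, was at 180 and 155 RPKM after IL-33 and at 118 and 91.9 RPKM after chronic HDM (log2 fold change 0.68, adjusted p = 0.08 from limma). *Cdkn2b* was at 0.440 and 4.11 RPKM after IL-33 and without reads after chronic HDM.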
